A study of Mus musculus with 16 samples.

Results

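Occupancy at 7 immediate early genes, Jund, Junb, Ier2, Fos, Jun, Egr1 and Myc, was examined in mouse neural progenitor cells by chromatin immunoprecipitation with sequencing (ChIP-seq). Each gene was represented by 1 fixed interval of the mm9 genome build, and its members were all 50 bp windows that the deposited files list there. Those intervals held 668 of the 1459926 windows listed in 9 libraries, in a set of 7 genes chosen by name. The cells were derived from the V6.5 embryonic stem cell line by way of embryoid bodies grown for 4 days, and were fixed with 1% formaldehyde. RNA polymerase II (Pol II), Med26 and Cdk8 were each mapped 72 hours after transfection with an siRNA against Cbx3 and after a control siRNA against luciferase. Pol II and Cbx3 (heterochromatin protein 1 gamma) were also mapped in untreated cells, Cbx3 in 2 libraries called sets 1 and 2 here. Every other group had 1 library, so differences between the siRNA arms have no replicate check and carry no p-value. All libraries come from 1 stem cell line, and neither the remaining Cbx3 after the knockdown nor neural marker genes were analysed here; the gene table used is of another build, so marker genes were not placed on the windows.

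Immediate early genes are transcribed within minutes of a growth signal, without new protein synthesis. Fos pairs with Jun, Junb or Jund to form the AP-1 transcription factor; Egr1 is a zinc finger activator, Myc a helix-loop-helix factor that promotes growth, and Ier2 a small nuclear protein. Their promoters are known to hold Pol II before induction. Mediator is the coactivator that links transcription factors to Pol II; its subunit Med26 binds elongation factors, and Cdk8 is the kinase of its detachable module.

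RefSeq promoters (GRCm38.p6) were matched for 4 of the 7 genes, Jund, Junb, Fos and Jun. Those of Fos, Junb and Jun are shown, each as the 250 bases before the start on the gene's own strand. Matches to the motifs named below are in capitals. The promoter coordinates are those of GRCm38.p6 and were not placed on the mm9 windows, so their position relative to the Pol II maxima is not given.
Fos, chr12:85473640-85473889, plus strand: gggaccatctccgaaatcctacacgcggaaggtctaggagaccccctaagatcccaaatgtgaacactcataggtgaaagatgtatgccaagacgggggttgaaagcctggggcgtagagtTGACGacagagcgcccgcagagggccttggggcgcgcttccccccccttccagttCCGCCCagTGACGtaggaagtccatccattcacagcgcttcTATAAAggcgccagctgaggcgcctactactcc
Junb, chr8:84978749-84978998, minus strand: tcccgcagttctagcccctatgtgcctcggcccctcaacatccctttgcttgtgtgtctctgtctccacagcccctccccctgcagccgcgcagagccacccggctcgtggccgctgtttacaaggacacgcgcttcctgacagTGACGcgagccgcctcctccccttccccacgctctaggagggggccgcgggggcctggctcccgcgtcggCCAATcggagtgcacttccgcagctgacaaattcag
Jun, chr4:95052223-95052472, minus strand: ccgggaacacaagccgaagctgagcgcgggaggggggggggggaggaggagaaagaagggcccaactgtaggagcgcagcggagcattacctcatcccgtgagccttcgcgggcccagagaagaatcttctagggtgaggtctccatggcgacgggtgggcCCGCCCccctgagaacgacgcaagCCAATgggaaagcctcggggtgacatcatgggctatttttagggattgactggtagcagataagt

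Motifs were searched on both strands. The TATA box, which positions the start of transcription, was taken as TATAAA. The box bound by the factor NF-Y was taken as CCAAT, and the GC box bound by Sp1 as GGGCGG. The cyclic AMP response element was taken as TGACGTCA and its half-site, which lies within it, as TGACG. The site that AP-1 itself binds was taken as TGANTCA, and the CArG box of serum response factor was searched by its usual pattern. Fos held TATAAA from 33 to 28 bases before the start, the half-site from 129 to 125 and from 66 to 62, and a GC box from 74 to 69. Junb held CCAAT from 36 to 32 and the half-site from 106 to 102, and Jun held CCAAT from 65 to 61 and a GC box from 89 to 84. Among 32851 promoters of this length, 12.4% held TATAAA, 33.8% CCAAT, 32.7% the GC box and 17.8% the half-site. The full element, the AP-1 site and the CArG box occurred in 1.55%, 6.75% and 1.47% of them, and in none of these 4 windows. Only these patterns within these windows were searched, so sites further upstream and variant sites would be missed. The Jun window, for example, holds tgacatca, which neither TGACGTCA nor TGANTCA matches. The search therefore cannot show that these genes lack such elements. GC content was 58.4% in Fos, 66.4% in Junb and 61.2% in Jun, against a median of 52.4% over all promoters. The Jund window, which starts from the outermost start in the table, had 47.6% GC and no match.

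The intervals lay on chromosome 8 from 73219000 to 73227000 for Jund, from 87498000 to 87505000 for Junb and from 87183000 to 87189000 for Ier2. Those of Fos, Jun, Egr1 and Myc lay on chromosome 12 from 86812000 to 86821000, chromosome 4 from 94713000 to 94722000, chromosome 18 from 35018000 to 35027000 and chromosome 15 from 61814000 to 61825000. They were 6000 to 11000 bp long and can include flanks of a neighbouring gene. In the RefSeq gene table (GRCm38.p6) the adjoining genes include Prdx2 and Hook2 beside Junb, Iqcn beside Jund, Junos beside Jun and Nacc1 beside Ier2.

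Pol II was listed at all 7 genes after Cbx3 siRNA and after control siRNA. In untreated cells it was listed at 6 of 7, Myc being the one not listed. Of 13342 tiles of 9 kb with control Pol II at any level, 52.9% were listed in untreated cells. A share among tiles matched to the genes by Pol II level was not computed. The values are the authors' signal per 50 bp window, and a gene's level is taken as its highest window. Jund, whose product is the AP-1 partner present in resting cells, had the highest level of the 7 in all 3 libraries: 93.2 after Cbx3 siRNA, 117 after control siRNA and 103 in untreated cells. That Pol II region ranked 19th of 16426 after Cbx3 siRNA, 20th of 16073 after control siRNA and 14th of 8183 in untreated cells when windows up to 200 bp apart were merged. At Ier2 the level was 72.0 after Cbx3 siRNA, 85.7 after control siRNA and 66.2 in untreated cells. At Junb it was 59.2 after Cbx3 siRNA, 56.1 after control siRNA and 77.3 in untreated cells. Ier2 thus stood above Junb in both siRNA arms and below it in untreated cells.

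Jun, the founding partner of Fos in AP-1, had intermediate Pol II levels of 44.8 after Cbx3 siRNA, 47.8 after control siRNA and 44.3 in untreated cells. Fos itself reached 29.3 after Cbx3 siRNA, 38.3 after control siRNA and 23.2 in untreated cells, which placed its region in the top 14.4%, 12.0% and 23.7% of all regions in that order. Egr1 and Myc were the lowest. Egr1 reached 14.5 after Cbx3 siRNA, 16.4 after control siRNA and 11.1 in untreated cells, and Myc reached 8.51 after Cbx3 siRNA and 17.2 after control siRNA. The lowest listed signal was 6.01 in both siRNA libraries and 9.02 in the untreated one, so Myc may hold Pol II below that limit in untreated cells. The value of 1 step of the signal differs between the untreated library (0.0211) and the siRNA libraries (0.0220), so levels are compared across them only by order. By that order, Jund, Jun and Fos held places 1, 4 and 5 in all 3 libraries.

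**Figure D1:**
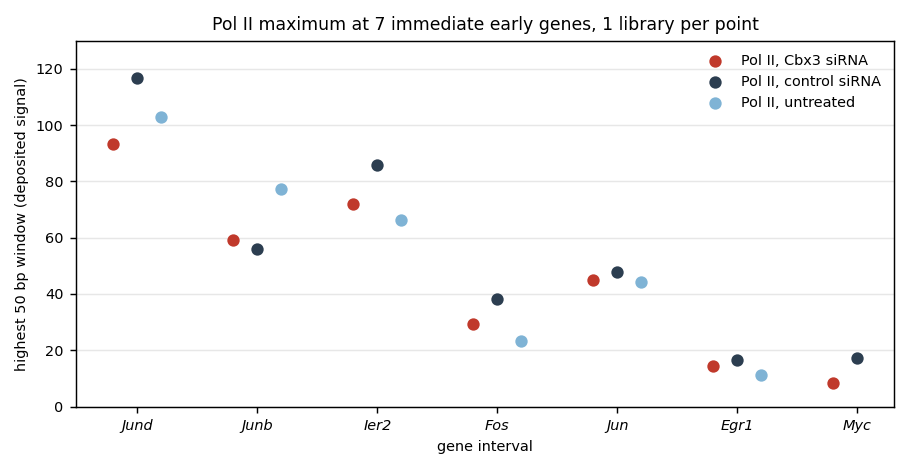
Highest Pol II window (deposited signal, linear axis) in each gene interval, with 1 point per library for Cbx3 siRNA, control siRNA and untreated cells. Jund is highest in all 3 libraries (93.2, 117 and 103), and Myc has no point for untreated cells because no window was listed there.

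The difference between the siRNA arms was set beside the whole genome, cut into 9 kb tiles. The highest Pol II window was lower after Cbx3 siRNA at 6 of the 7 genes and slightly higher at Junb, with a median log2 difference (Cbx3 siRNA minus control siRNA) of -0.25 over the 7 genes. Over the 10774 tiles with windows in both arms the median was -0.29, and it was -0.35 over the 8265 tiles at or above the lowest member's control level, of which 25.5% differed by at least 1.5-fold. A difference of at least 1.5-fold was found at 1 of the 7 genes, Myc, against 23.9% of all tiles; 21.7% of tiles were lower and 2.15% higher by that much. All 7 genes listed in the control were listed again after Cbx3 siRNA, as were 80.8% of control tiles. The 7 genes therefore lay within the spread of Pol II differences seen across the genome.

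Gene by gene, the log2 difference of the highest window was -0.33 at Jund, 0.08 at Junb and -0.25 at Ier2. It was -0.39 at Fos, -0.09 at Jun, -0.18 at Egr1 and -1.01 at Myc. If 50 steps of signal are read as 1 read, a reading inferred from the values and weak for Pol II, the 95% exact counting interval ran from -0.75 to 0.11 at Jund and from -0.50 to 0.66 at Junb. It ran from -2.43 to 0.31 at Myc, where the maxima correspond to 7.74 and 15.6 reads after Cbx3 siRNA and control siRNA. Counting error alone thus left the sign open at these 3 genes, and at each of the other 4.

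**Figure D2:**
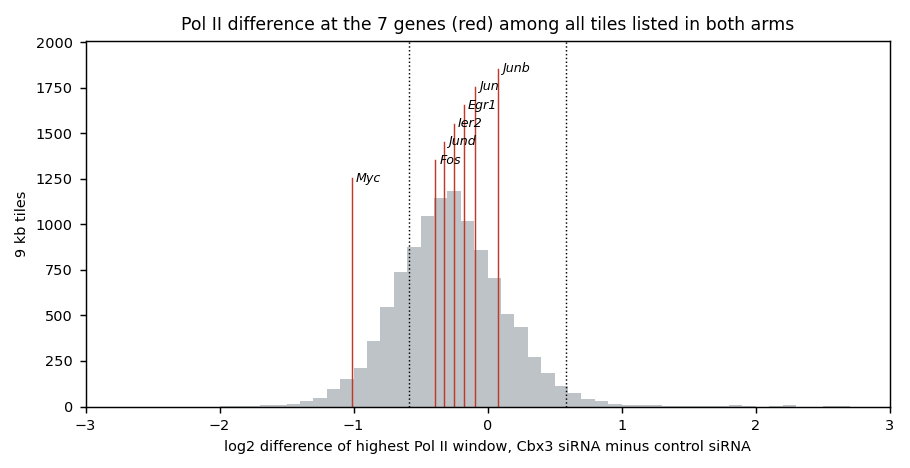
Distribution of the log2 difference of the highest Pol II window (Cbx3 siRNA minus control siRNA) over 10774 tiles of 9 kb, as grey bars, with the 7 genes as red lines and dotted lines at 1.5-fold. Myc (-1.01) lies outside the dotted lines and the other genes lie between -0.39 and 0.08.

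The sum of listed signal gave another direction at 3 genes. At Egr1, 15 windows were listed after Cbx3 siRNA, 4 after control siRNA and 1 in untreated cells, so the summed log2 difference was 1.56 although the highest window was lower. Those 15 windows had low signals, none above 14.5. At Fos the summed log2 difference was 0.12, with 20 windows after Cbx3 siRNA and 16 after control siRNA, and at Junb it was -0.16, with 59 and 53 windows in that order. Myc had 1 window after Cbx3 siRNA and 5 after control siRNA. Over the 174 windows listed in both arms the median log2 difference was -0.22 and 70.1% were lower after Cbx3 siRNA, against -0.29 and 74.2% over 74288 windows genome-wide.

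The highest window lay at the same place in all 3 libraries at Jund (chromosome 8 from 73222851 to 73222900), Junb (87502551 to 87502600) and Ier2 (87186701 to 87186750). Windows within 250 bp of the maximum held 47.0% of the Jund sum after Cbx3 siRNA, 48.8% after control siRNA and 53.9% in untreated cells. At Ier2 those shares were 33.8% after Cbx3 siRNA, 29.4% after control siRNA and 55.6% in untreated cells, and at Junb they were 29.6% after Cbx3 siRNA, 25.4% after control siRNA and 55.8% in untreated cells. The untreated list has the higher minimum and fewer windows, and their part in these shares was not tested. Egr1 was the only gene whose maximum moved far between the siRNA arms, by 700 bp. That Egr1 maximum after Cbx3 siRNA was 14.5, against 11.7 in the same library 100 bp from the control maximum. It stands for 13.2 inferred reads (counting interval 6.92 to 22.2), so which window is highest is uncertain.

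**Figure D3:**
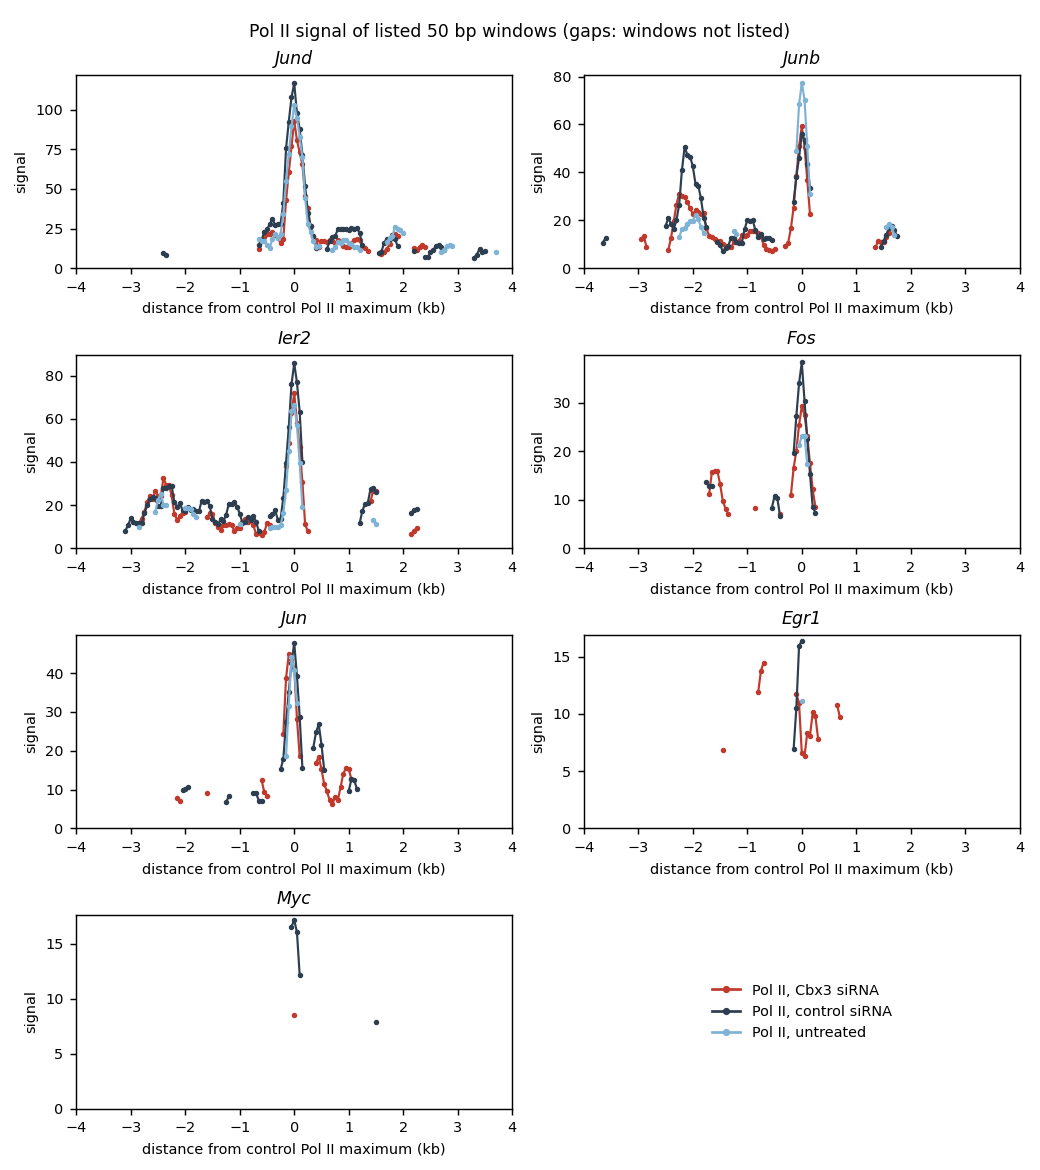
Pol II signal of each listed 50 bp window against its distance from the control siRNA maximum, for Cbx3 siRNA, control siRNA and untreated cells; gaps are windows not listed. The main maxima coincide at Jund, Junb and Ier2, and a second maximum about 2 kb to the left of the main one at Junb is highest after control siRNA.

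Junb had a second Pol II maximum, which was singled out after the values had been seen. Taken in each library as its own highest window at least 1000 bp from the main maximum, it was 31.1 after Cbx3 siRNA, 50.6 after control siRNA and 22.1 in untreated cells. As a share of the main maximum in the same library, this was 52.6% after Cbx3 siRNA, 90.2% after control siRNA and 28.6% in untreated cells. The second maxima lay 2250 bp from the main one after Cbx3 siRNA, 2150 bp after control siRNA and 1950 bp in untreated cells. By the strand in RefSeq the second maximum lies on the downstream side of the main one; whether it belongs to Junb or to the next gene, Prdx2, was not tested. At Ier2 the second maximum, found in the same way, was 32.6 after Cbx3 siRNA, 29.0 after control siRNA and 25.3 in untreated cells, or 45.2%, 33.8% and 38.2% of the main one in that order.

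The windows on either side of the main maximum were compared for the 4 genes with a RefSeq strand, also after the values had been seen. At Jun, all 5 shared windows on the downstream side were higher after Cbx3 siRNA (median log2 difference 0.44) and 7 of 8 on the upstream side were lower (median -0.49). The maximum itself lay 100 bp further downstream after Cbx3 siRNA than after control siRNA, and 50 bp further in untreated cells. Sides were split at the control maximum, so the Jun counts are not independent of its shift after Cbx3 siRNA. At Fos, 4 of 5 downstream windows were higher (median 0.19) and 4 of 6 upstream windows were lower (median -0.22). At Jund, all 13 upstream windows were lower (median -0.42), as were 22 of 31 downstream ones (median -0.20). At Junb the downstream median was the lower one, at -0.23 over 39 windows, against -0.08 over 7 upstream ones. Genome-wide, 74.2% of the Pol II windows listed in both arms were lower after Cbx3 siRNA, with a median of -0.29. Sides were not split outside the 7 intervals, so no genome share for either side is given. Neighbouring windows share reads, so these counts describe single libraries.

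Med26 was listed at none of the 7 genes after Cbx3 siRNA and at 5 of them after control siRNA. Of the tiles with control Pol II, 7.65% held Med26 after Cbx3 siRNA and 34.4% after control siRNA. In the control, Jun had the highest Med26 window, 13.5, followed by Jund with 11.1. Myc had 7.70, Junb 6.79 and Ier2 6.74, all close to the lowest listed signal of 6.01, and neither Fos nor Egr1 had a window. Of 5372 tiles with Med26 in the control, 14.4% were listed again after Cbx3 siRNA, so 0 of 5 genes is near what the genome as a whole gave. At the 4 genes with control Pol II at or above the level of Jun, Med26 was listed at none after Cbx3 siRNA and at all 4 after control siRNA. Among the 869 tiles with Pol II that high, the shares were 19.6% after Cbx3 siRNA and 69.0% after control siRNA.

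These Med26 values rest on few reads. With the signal of 1 read inferred as 0.962, the Jun maximum stands for 14.1 reads (exact Poisson interval for the nearest whole count 7.65 to 23.5) and the Ier2 maximum for 7 (2.81 to 14.4). No ratio between arms can be given, because an unlisted window has no value. For Med26 as for the other antibodies, a difference in preparation cannot be told apart from one of the knockdown.

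Where Med26 was listed, it mostly lay on Pol II. At Jun the 3 Med26 windows ran from the control Pol II maximum to 100 bp downstream of it, with signals of 8.99, 13.5 and 12.1 in that order. The Med26 maximum was thus 50 bp from that of Pol II. Pol II in that window was 43.6 after Cbx3 siRNA, 42.6 after control siRNA and 44.3 in untreated cells. At Ier2 the Med26 maximum was 100 bp from that of Pol II. At Jund the 5 Med26 windows began 50 bp downstream of the Pol II maximum and were highest 250 bp downstream of it. The single Junb window lay 2400 bp away, beside the second Pol II maximum, and the single Myc window lay 5950 bp away with no Pol II listed. Over the intervals, 11 of 12 control Med26 windows also held control Pol II, against 76.8% of Med26 windows genome-wide.

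Cdk8 was listed at 3 genes after Cbx3 siRNA and at 2 after control siRNA, against 16.3% and 13.2% of tiles with control Pol II in that order. No window at the 7 genes was listed in both arms; genome-wide, 24.7% of control Cdk8 windows were listed again after Cbx3 siRNA. After Cbx3 siRNA it had 5 windows at Ier2 with a maximum of 11.0, and 1 window each at Fos (8.38) and Jund (7.02). After control siRNA it had 2 windows each at Fos (maximum 7.93) and Jun (6.94). Fos was the only gene listed in both arms, and there the nearest windows of the arms were 1150 bp apart. Of the 2 genes listed in the control, 1 was listed again, against 16.3% of 5367 control tiles. Of the 3 listed after Cbx3 siRNA, 1 was in the control list, against 14.9% of tiles. Junb, Egr1 and Myc had no Cdk8 window in either arm.

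The Cdk8 maxima stand for 4.92 to 7.80 reads on the inferred signal of 1 read, 1.41. None lay within 250 bp of the main Pol II maximum. The Ier2 windows lay 2550 bp from it, within the second Pol II stretch, where Pol II in the same window was 26.5 after Cbx3 siRNA, 23.1 after control siRNA and 16.8 in untreated cells. The Jund window after Cbx3 siRNA was 400 bp downstream of the Pol II maximum. The Jun maximum in the control was 500 bp upstream, where Pol II was 15.2 after Cbx3 siRNA and 21.6 after control siRNA.

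**Figure D4:**
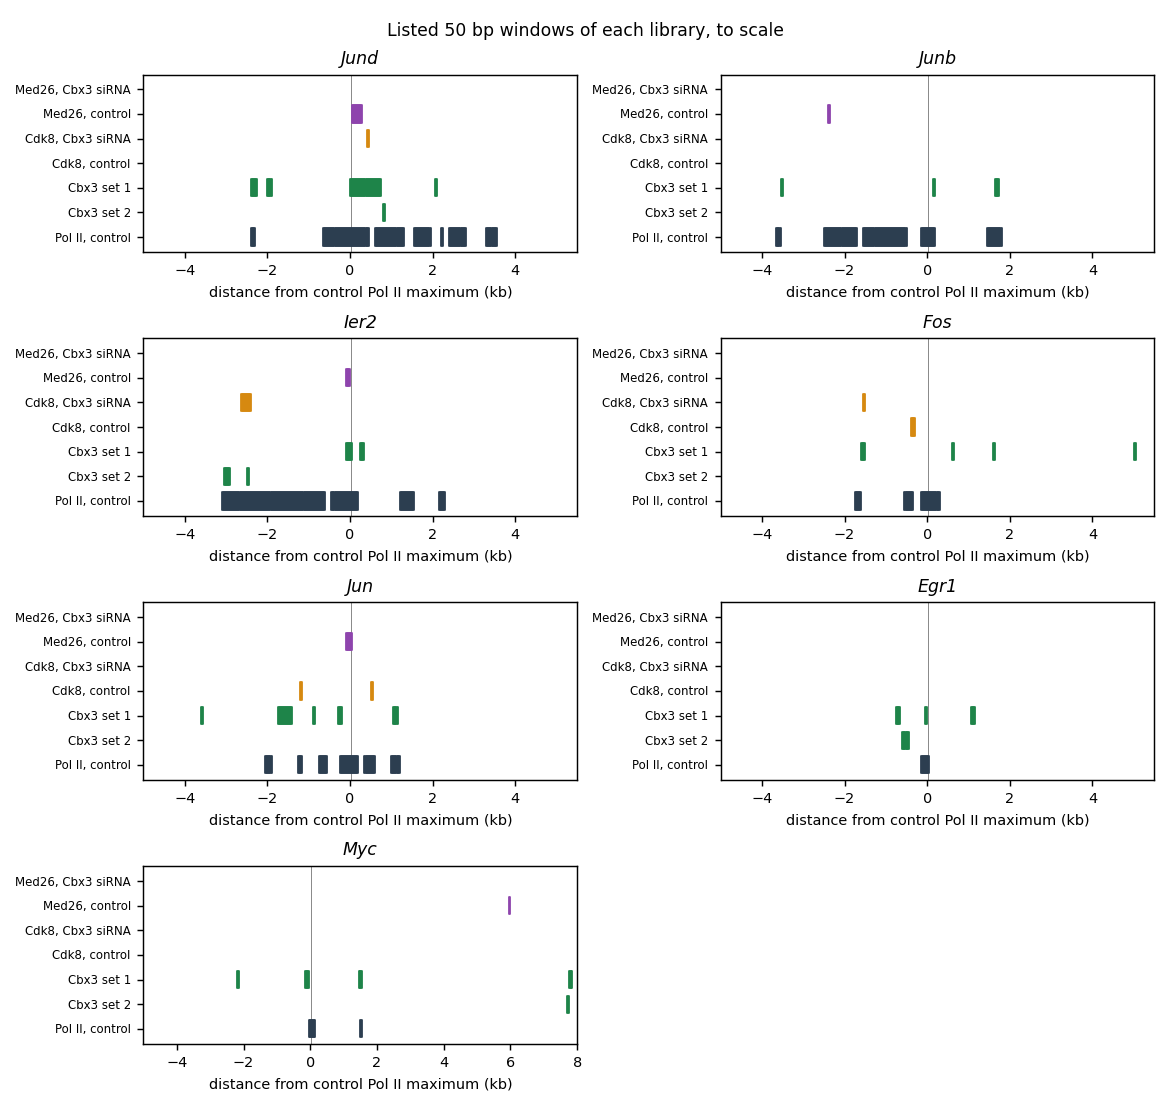
Position of every listed window of Med26, Cdk8, Cbx3 and control siRNA Pol II relative to the control Pol II maximum (kb, higher mm9 coordinates to the right), 1 row per library; bars show listing, not height. Med26 after Cbx3 siRNA has no window at any of the 7 genes, while Cbx3 set 1 has windows at all 7.

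Cbx3, which binds methylated histone H3 and is also found over transcribed genes, was listed in untreated cells at all 7 genes in set 1 and at 4 in set 2 (Jund, Ier2, Egr1 and Myc). Of the tiles with control Pol II, 83.0% held set 1 and 41.1% held set 2. The shares were 89.3% and 41.5% of the 223062 tiles listed in any library, the Cbx3 sets included. Both sets were listed at 4 of the 7 genes, against 36.4% of the tiles with control Pol II. No single window at the 7 genes was listed in both sets; genome-wide, 32031 windows were, which is 3.47% of set 1 and 13.1% of set 2. The nearest windows of the sets were 50 bp apart at Myc, 100 bp at Jund and Egr1, and 2400 bp at Ier2.

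The highest Cbx3 signals of set 1 were at Jund and Ier2, which held places 1 and 3 by Pol II in untreated cells. In the listed values, the order of the genes was not shared beyond that. Junb, at place 2 by untreated Pol II, had a lower Cbx3 maximum than Ier2. Myc, with no Pol II listed in untreated cells, had a higher Cbx3 maximum than Jun and Fos. The inferred signal of 1 read was 3.98 in set 1. The maxima stand for 18.6 reads at Ier2 (counting interval 11.4 to 29.7) and 14.7 at Junb (8.40 to 24.7). They stand for 13.6 at Myc (7.65 to 23.5), 13.0 at Jun (6.92 to 22.2) and 11.9 at Fos (6.20 to 21.0). These counting intervals overlap, so the order of these genes is uncertain. The Myc interval, at 11000 bp, was also the longest of the 7. At Jund 15 windows in a row, from 73222851 to 73223600, began at the Pol II maximum and ran downstream, with the maximum of 78.9 lying 100 bp from that of Pol II. At Ier2 the set 1 maximum of 73.9 was 50 bp from the Pol II maximum. These regions ranked 1640th and 2382nd of the 419145 in set 1. At Junb (58.7), Myc (54.2), Jun (51.6), Egr1 (48.9) and Fos (47.4) the set 1 maximum lay 600 to 3550 bp from that of Pol II. Other windows of set 1 lay nearer, 150 bp from the Pol II maximum at Junb (53.0) and 50 bp at Egr1 (47.5). They lay 100 bp from it at Myc (45.8) and 250 bp at Jun (48.0), while at Fos none was nearer than 600 bp. In set 2 the maxima were 24.3 at Ier2, 23.5 at Egr1, 18.6 at Myc and 16.4 at Jund, at 500 to 7700 bp from the Pol II maximum. The Jund and Ier2 maxima of set 1 at the Pol II summit were therefore not listed in set 2, whose values have another step and cannot be set against those of set 1. At Ier2 the set 2 maximum and the Cdk8 windows after Cbx3 siRNA lay in the same stretch, with 1 of the 5 Cdk8 windows at the set 2 maximum itself.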

How the data were processed

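ChIP-seq files of 9 libraries were analysed; the 7 inputs were not used here on their own. Per the submitters' processing notes, reads were aligned with Bowtie to mm9; its version, the test that chose windows and the part played by inputs were not stated. In each deposited file, 50 bp windows with coordinates counted from 1 carry the authors' signal value. Values were whole multiples of 1 step in every file (within 0.05 of a step); multiples of 50 steps made up 3.00 to 3.39% of siRNA Pol II values, 4.97 to 10.5% of Med26 and 20.9 to 21.8% of Cdk8 values, against 2% by chance. Total depth is unknown, and counting intervals cover counting error only.

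The members were fixed intervals, and members and measures were chosen with earlier results of these data known; all 7 genes are named. The highest and summed signal per interval were computed and set beside 9 kb tiles, with differences of at least 1.5-fold counted. Only libraries of an equal step were compared as ratios. Other immediate early genes and neural markers were not located, since no mm9 annotation was used here. Steps were tested on simulated data. Versions were scipy 1.17.1, pandas 2.3.3, numpy 2.4.6 and matplotlib 3.10.9 under Python 3.11.15.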

Additional observations from a re-analysis of the deposited data

How the results depend on the processing

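No difference between the siRNA arms has a replicate check, and the Med26 and Cdk8 maxima stand for few inferred reads. Of the 7 genes, the number listed with windows at or above the control median was 1 for Cdk8 after Cbx3 siRNA, 0 for Cdk8 after control siRNA and 2 for Med26 after control siRNA, against 3, 2 and 5 with every listed window. For Pol II that number was 5 after Cbx3 siRNA and 6 after control siRNA, against 7 in either arm. The count of genes with Cbx3, 4 when both sets were required, was 4 without set 1 and 7 without set 2. By summed signal, 2 genes differed at least 1.5-fold in Pol II (Egr1 at 1.56 and Myc at -3.04, log2) in place of 1, and 1 gene, Fos, did so in Cdk8 in place of 0. These sums run over windows listed separately in each arm (15 and 4 at Egr1, 1 and 5 at Myc, 1 and 2 for Cdk8 at Fos, Cbx3 siRNA and then control siRNA), so they move with how many windows were listed. Past 1.5-fold by summed signal were 47.6% of Pol II and 52.6% of Cdk8 tiles, against 23.9% and 21.0% by the highest window. The share of Pol II tiles past 1.5-fold by the highest window was 25.5% among tiles at or above the lowest member. The cause was not tested. Widening the intervals by 2 kb changed none of the counts of listed genes. The median Pol II difference ran from -0.16 by summed signal to -0.25, and stayed negative under its 3 alternatives. For Med26 no log2 difference could be computed, and for Cdk8 none over shared windows, since no window was listed in both arms. No paired analysis was possible because only 1 library exists for each antibody in either siRNA arm.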
